A study of Mus musculus with 8 samples.

Results

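The Abcb1 drug efflux pumps of the mouse, Abcb1a and Abcb1b, were followed in olaparib-resistant ID8 cells through 6 rows of a gene count table with 54146 rows. The rule named 5 rows: Abcb1a, Abcb1b, the row Gm42686 that lies across Abcb1a on the other strand, and the pump genes Abcc1 and Abcg2 for comparison. A search for rows whose exons overlap an exon of these genes on the opposite strand added 1 row, Gm5106, which overlaps Abcb1b. Gm42686 was put on the list because it had passed the test in EZM8266 against DMSO and in the combination against DMSO in an earlier reading of the same counts. Its differences in those contrasts, and in the others that set libraries with EZM8266 against libraries without it, are therefore given as a description with no test.

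The cells were ID8-OR, derived from the mouse ovarian cancer line ID8 and resistant to olaparib, a trait that all 4 groups share. They were kept for 72 hours with the combination of olaparib and EZM8266, with EZM8266 alone, with olaparib alone or with DMSO, the solvent, and 2 libraries were made per group. Olaparib inhibits the PARP enzymes, which mark DNA breaks with ADP-ribose. EZM8266 inhibits EHMT1 and EHMT2, the enzymes that place repressive methyl groups on lysine 9 of histone H3. No parental ID8 cells that respond to olaparib were analysed here, so the level of a row before resistance is not given. The labels do not say whether the libraries of a group came from separate cultures, and p-values then measure only how far these libraries scatter, which can be technical. The labels give 1 cell line, and do not say whether the resistant cells are 1 clone.

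Abcb1a and Abcb1b encode the mouse forms of P-glycoprotein, for which humans have the single gene ABCB1. The protein sits in the plasma membrane, binds ATP and moves lipophilic drugs out of the cell, which lowers their level inside. Olaparib is a known substrate, and raised Abcb1a and Abcb1b RNA is a known feature of some mouse tumours that resist it. Abcc1, also called multidrug resistance protein, exports conjugated compounds, and Abcg2, the breast cancer resistance protein, exports a further range of drugs.

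The libraries summed to 973382 to 1680974 counts, 4.54% to 5.4% of their fragments being assigned to a row, and 6379 rows had enough counts to be tested. The counts lie mostly on the strand opposite to the gene that names the row, since the counting took the strand of the first read and the library kit marks the other one. The row of the keratin gene Krt8 held 6 to 23 counts, and a row across Krt8 on the other strand, Gm36026, held 196 to 362. Counts of a row are therefore described as fragments on the strand opposite to it. The epithelial markers Krt18 (10 to 40 counts), Krt19 (14 to 53) and Wt1 (13 to 58) had counts on their own rows. Muc16 held 0 to 6 counts, Msln 2 to 9, and Krt7 and Epcam 0 to 1. The own rows of the leukocyte markers Ptprc, Cd3e and Adgre1 held 0 to 2 counts. Those of the endothelial markers Pecam1, Cdh5 and Kdr held 0 to 4. Since these rows mostly count the strand opposite to the marker, they neither show nor exclude a cell type. Beside Krt8, a row on the other strand was found over Krt7 (Gm671, 0 to 2 counts) and over Cd3e (Gm48719, 0 counts). DMSO replicate 1 and olaparib replicate 2 stood apart by the Gm10800 row, which held 23746 and 22517 counts there and 1182 to 4277 in the other libraries. The sample numbers in the labels are 33 to 36 where EZM8266 was given and 41 to 44 where it was not, so any block these numbers stand for and EZM8266 cannot be told apart.

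Gm42686 has 1 exon of 4108 bases on the minus strand of chromosome 5 (8731661 to 8735768, mm10) and is annotated as a transcript to be experimentally tested. It lies inside the body of Abcb1a, which runs on the plus strand from 8660077 to 8748575. The row overlaps exons of Abcb1a by 553 bases, which is 13.5% of the row and 10.1% of the exon bases of Abcb1a. Of these bases, 242 are exons 22 and 23 of the 28 exons of the protein-coding Abcb1a transcript, all of them coding, and 311 belong only to noncoding Abcb1a transcripts with retained introns. The remaining 3555 bases, 86.5% of the row, are intron in every annotated Abcb1a transcript. Where in the row the counted fragments lay was not measured, so spliced RNA, RNA that still holds introns and other RNA of the plus strand cannot be told apart. Fewer cells with such RNA and less RNA per cell cannot be told apart either.

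Exons 22 and 23 are shown beside the same exons of Abcb1b because they are the coding Abcb1a sequence that lies under the Gm42686 row, and because the paralog is close to identical there. Capitals mark the bases that differ between Abcb1a and Abcb1b. Sequences are from the GENCODE M21 transcripts of the assembly GRCm38, which is mm10, written 5′ to 3′.
Abcb1a exon 22, chr5:8732292-8732392, plus strand: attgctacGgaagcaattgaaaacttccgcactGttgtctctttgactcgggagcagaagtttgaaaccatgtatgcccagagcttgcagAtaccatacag
Abcb1b exon 22, chr5:8845748-8845848, plus strand: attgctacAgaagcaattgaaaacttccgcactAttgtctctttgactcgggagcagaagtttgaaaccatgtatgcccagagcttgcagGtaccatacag
Abcb1a exon 23, chr5:8733599-8733739, plus strand: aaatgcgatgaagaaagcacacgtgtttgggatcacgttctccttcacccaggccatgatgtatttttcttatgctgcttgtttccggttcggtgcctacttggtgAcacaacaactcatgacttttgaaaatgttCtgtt
Abcb1b exon 23, chr5:8849512-8849652, plus strand: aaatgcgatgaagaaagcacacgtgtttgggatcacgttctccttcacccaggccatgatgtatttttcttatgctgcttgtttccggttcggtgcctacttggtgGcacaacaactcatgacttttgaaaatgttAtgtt
The exon 22 pair shared 98 of 101 bases (97.0%), with an identical stretch of 56 bases, and the exon 23 pair shared 139 of 141 bases (98.6%), with an identical stretch of 106 bases. Over the whole coding sequences, which are 3828 bases in both genes, 88.2% of the aligned bases were identical. Fragments of these exons may be split between the paralogs or left out, since the alignments counted had been filtered to unique ones, per the file headers. The values of the row in its exonic part are uncertain to that extent.

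Gm5106 is an antisense transcript with 3 exons on the minus strand (8773577 to 8798523) whose first exon lies over that of Abcb1b, a gene on the plus strand from 8798147 to 8866315. The overlap is 143 bases (8798147 to 8798289), none of them coding, which is 10.7% of the 1334 exon bases of Gm5106 and 1.79% of the 7990 of Abcb1b. Of the other bases of the row, 957 lie before the annotated start of Abcb1b, in the 49571 bases between the end of Abcb1a and that start. Its first exon also covers 253 of the 300 bases of the RefSeq promoter window of Abcb1b, and for that reason the 250 bases before the start are shown, from RefSeq on GRCm38.p6. Capitals mark the motifs CCAAT and GGGCGG, which were searched on both strands.
Abcb1b upstream window, chr5:8797897-8798146, plus strand: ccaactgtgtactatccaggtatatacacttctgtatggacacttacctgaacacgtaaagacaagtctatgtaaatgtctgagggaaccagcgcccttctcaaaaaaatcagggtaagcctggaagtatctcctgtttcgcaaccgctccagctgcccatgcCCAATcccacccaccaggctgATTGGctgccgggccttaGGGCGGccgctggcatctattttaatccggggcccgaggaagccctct
CCAAT, the box bound by the factor NF-Y, was found at -87 on the plus strand and at -66 on the minus strand, counted from the start. GGGCGG, a GC box bound by Sp1, was found at -48. CCAAT was present in 37.4% and GGGCGG in 35.7% of the 32851 promoter windows of 300 bases in the table, so both are common. Neither was found in the RefSeq window of Abcb1a (chr5:8566841-8567140), which belongs to a RefSeq start far upstream of the GENCODE start of Abcb1a at 8660077.

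**Figure D1:**
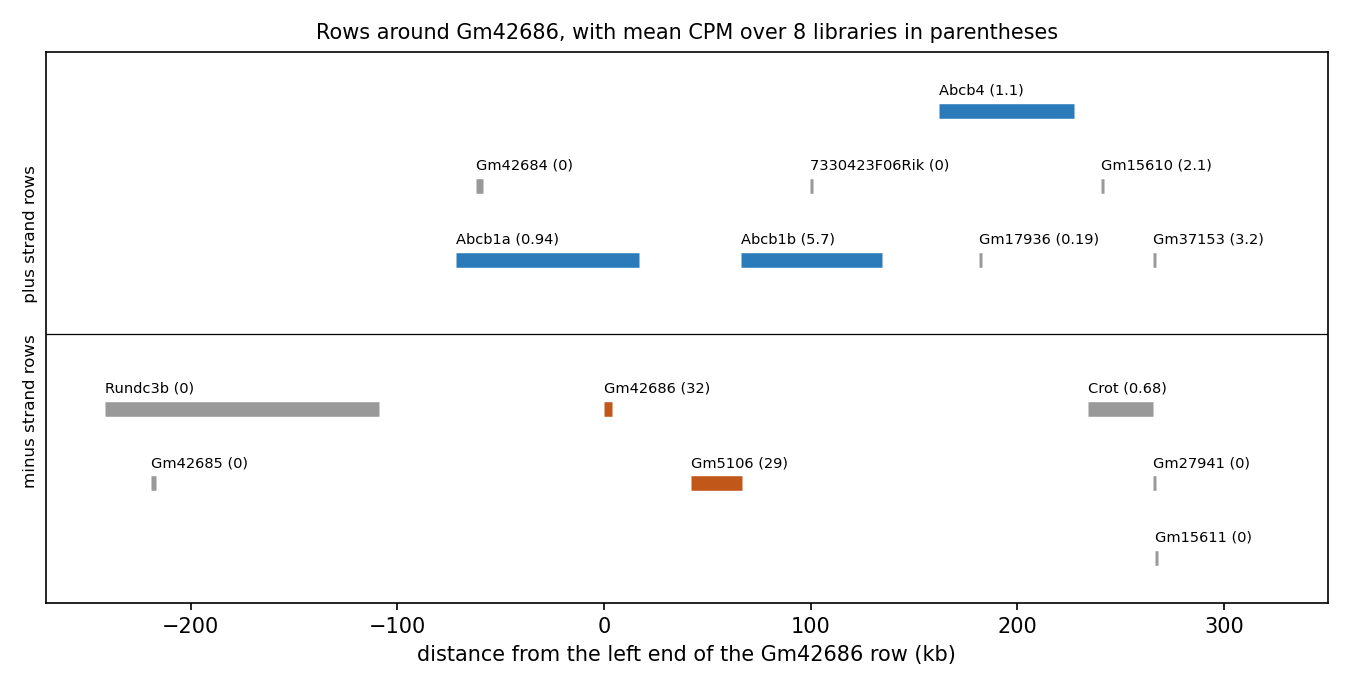
Rows of the table around Gm42686, drawn to scale as bars over their gene bodies, with distance in kb from the left end of Gm42686 on the horizontal axis, plus-strand rows above the line, minus-strand rows below it, and the mean TMM-scaled CPM over 8 libraries in parentheses. Of the rows drawn, Gm42686 and Gm5106, both on the minus strand, have the highest means (32.0 and 29.3 CPM), and Abcb1b has 5.70 CPM.

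Plus-strand fragments in the Gm42686 row averaged 2.82 times as many CPM in the libraries with EZM8266 as in those without it, and were high with EZM8266 in both olaparib states. The row held 48 and 54 counts with the combination, 66 and 44 with EZM8266, 21 and 26 with olaparib, and 16 and 27 with DMSO. The 4 libraries with EZM8266 thus held 212 counts in all, and the 4 without it 90. As CPM, the count relative to a library total scaled by TMM factors, the row held 47.0 and 51.2 CPM with the combination, 48.5 and 42.6 with EZM8266, 15.0 and 20.6 with olaparib, and 15.2 and 16.2 with DMSO. All libraries with EZM8266 lay above all without it, the lowest with it at 42.6 CPM being 2.07 times the highest without it at 20.6 CPM. The libraries with olaparib overlapped those of their counterpart without it, both in the presence and in the absence of EZM8266.

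Group means of the Gm42686 row were 49.1 ± 2.95 CPM with the combination, 45.5 ± 4.23 with EZM8266, 17.8 ± 3.91 with olaparib and 15.7 ± 0.691 with DMSO (SD, n = 2 each). Over both olaparib states the mean was 47.3 ± 3.61 CPM with EZM8266 and 16.8 ± 2.59 without it (SD, n = 4 each), a ratio of 2.82. In that order the libraries of the combination and EZM8266 overlapped, as did those of olaparib and DMSO. The counting interval of a single library is wide: the 66 counts of EZM8266 replicate 1 have an exact Poisson 95% interval of 51.0 to 84.0, and the 16 counts of DMSO replicate 1 one of 9.15 to 26.0. These intervals cover counting error only.

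**Figure D2:**
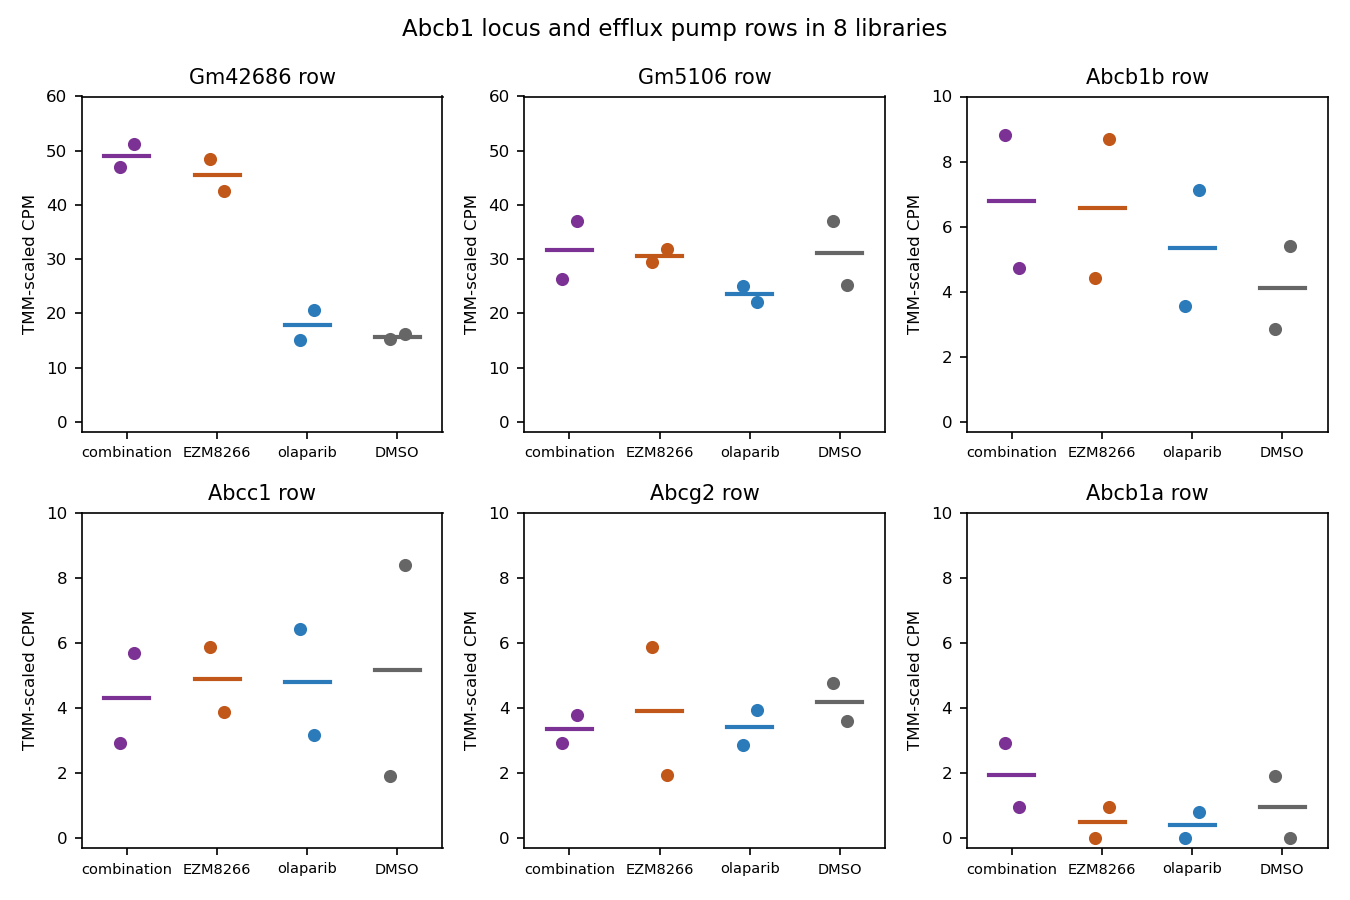
TMM-scaled CPM of the 6 rows in each library (points) with the group mean (line), for combination, EZM8266, olaparib and DMSO from left to right. The vertical axis ends at 60 CPM for Gm42686 and Gm5106 and at 10 CPM for the other 4 rows. The Gm42686 points with EZM8266 lie at 42.6 to 51.2 CPM and those without it at 15.0 to 20.6 CPM, while in the other rows the libraries with and without EZM8266 overlap.

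In edgeR's fit, the log2 fold change of Gm42686 in EZM8266 over DMSO was 1.53 ± 0.27 (SE). The combination gave 1.63 ± 0.27 over DMSO and 1.47 ± 0.27 over olaparib. The main effect of EZM8266, the mean of EZM8266 minus DMSO and of combination minus olaparib, was 1.50 ± 0.19, with a 95% interval of 0.96 to 2.03. These values describe the row that was selected on them, and the comparisons with DMSO share the DMSO libraries. Of the 2 rows of the list that were tested, 1 was called (adjusted p under 0.05) in EZM8266 against DMSO, where 0.204% of all tested rows were called. The same row was the 1 called in the combination against DMSO (0.219% of all rows called) and in the main effect (0.658%). In the combination against olaparib neither was called with edgeR (0.0941% of all rows called), Gm42686 had an unadjusted p under 0.05, and DESeq2 called neither. Nothing is read from these counts, because the rule used the contrasts. The call in EZM8266 against DMSO was lost in every fit that left out 1 library, and that in the combination against DMSO without DMSO replicate 1, DMSO replicate 2, combination replicate 1 or combination replicate 2. The log2 fold change of the main effect was 1.39 to 1.61 in these fits. Without DMSO replicate 1 and olaparib replicate 2, the libraries rich in Gm10800, it was 1.59 ± 0.29.

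The contrasts of olaparib were not themselves used to choose Gm42686 and were tested. They share DMSO, EZM8266 or combination libraries with the contrasts that were used, so their p-values are not independent of the choice. For olaparib against DMSO its log2 fold change was 0.16 ± 0.30 (SE; 95% interval -0.67 to 1.00; edgeR adjusted p = 0.999). For the combination against EZM8266 it was 0.10 ± 0.25 (interval -0.58 to 0.79; edgeR adjusted p = 1.0). The interaction, which asks whether the difference with EZM8266 changes when olaparib is present, was -0.06 ± 0.39 (interval -1.13 to 1.01; edgeR adjusted p = 1.0). No difference with olaparib was thus detected for this row. The upper bounds still allow a 2-fold rise for olaparib against DMSO and for the interaction, but not for the combination against EZM8266. Neither tested row of the list was called in these comparisons, in which 0.0%, 0.0% and 0.0% of all rows were called. At an unadjusted p under 0.05 there were 117 rows for olaparib against DMSO, 97 for the combination against EZM8266 and 103 for the interaction, and neither Gm42686 nor Gm5106 was among them. DESeq2 called 0, 1 and 1 of all rows in that order of comparisons, and neither row of the list.

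Gm5106, the row over the start of Abcb1b, was about as abundant as Gm42686 but did not pass the test in any comparison. It held 27 and 39 counts with the combination, 40 and 33 with EZM8266, 35 and 28 with olaparib, and 39 and 42 with DMSO, or 139 counts with EZM8266 and 144 without it. As CPM, it held 26.4 and 37.0 with the combination, 29.4 and 31.9 with EZM8266, 25.03 and 22.1 with olaparib, and 37.1 and 25.2 with DMSO. The highest library was DMSO replicate 1 and the lowest olaparib replicate 2, the pair rich in Gm10800, and the groups with and without EZM8266 overlapped.

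The mean of Gm5106 was 31.2 ± 4.45 CPM with EZM8266 and 27.4 ± 6.65 CPM without it (SD, n = 4 each). Its main effect of EZM8266 was 0.21 ± 0.21 on the log2 scale (interval -0.37 to 0.80; edgeR adjusted p = 0.906). With EZM8266 over DMSO its log2 fold change was 0.00 ± 0.22 (edgeR adjusted p = 1.0). That SE was derived from the fold change and the test statistic, and is unreliable so near 0. With another scaling of the libraries (RLE) the log2 fold change was 0.01 ± 0.29. The combination gave 0.05 ± 0.30 over DMSO (edgeR adjusted p = 0.997) and 0.42 ± 0.30 over olaparib (edgeR adjusted p = 1.0). For olaparib against DMSO it was -0.37 ± 0.30 (edgeR adjusted p = 0.999), for the combination against EZM8266 0.05 ± 0.30 (1.0) and for the interaction 0.42 ± 0.42 (1.0). Within a library, the Gm42686 row held 1.78 and 1.38 counts per count of Gm5106 with the combination, 1.65 and 1.33 with EZM8266, 0.600 and 0.929 with olaparib, and 0.410 and 0.643 with DMSO. That ratio needs no scaling between libraries, and it was above 1 in each library with EZM8266 and below 1 in each without it. Its upper term is the row chosen for its difference with EZM8266, so the split is a description and no separate support.

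The 4 pump rows themselves take fragments of the minus strand, opposite to the pump RNA, and were too thin to pass the filter on low counts. Abcb1a (5480 exon bases) held 3 and 1 counts with the combination, 0 and 1 with EZM8266, 0 and 1 with olaparib, and 2 and 0 with DMSO. Both libraries of a group lay at or under the floor of 3 counts, 1.78 to 3.08 CPM, so no fold is given for this row. Over the 553 bases it shares with Gm42686 and the rest of the Abcb1a exons, minus-strand fragments were therefore at the limit of this depth in every group.

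Abcb1b (7990 exon bases) held 9 and 5 counts with the combination, 6 and 9 with EZM8266, 5 and 9 with olaparib, and 3 and 9 with DMSO. As CPM this was 6.78 ± 2.88 with the combination, 6.56 ± 3.03 with EZM8266, 5.35 ± 2.50 with olaparib and 4.13 ± 1.80 with DMSO (SD, n = 2 each), and the 4 groups overlapped. In a fit without the filter, which tested 27896 rows and called 0.298% of them in the main effect of EZM8266, its main effect was 0.46 ± 0.47 on the log2 scale (interval -0.85 to 1.77; edgeR adjusted p = 1.0). That interval holds 0 and also a rise of more than 2-fold.

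Abcc1 (chromosome 16, 14361558 to 14475737; 15092 exon bases) held 3 and 6 counts with the combination, 8 and 4 with EZM8266, 9 and 4 with olaparib, and 2 and 14 with DMSO. Its lowest and its highest library were both DMSO libraries. Abcg2 (chromosome 6, 58584523 to 58695676; 8153 exon bases) held 3 and 4 counts with the combination, 8 and 2 with EZM8266, 4 and 5 with olaparib, and 5 and 6 with DMSO, and the groups overlapped. Without the filter, the main effect of EZM8266 was -0.16 ± 0.49 for Abcc1 and 0.01 ± 0.55 for Abcg2 on the log2 scale (edgeR adjusted p = 1.0 for both, 95% intervals -1.53 to 1.21 and -1.50 to 1.53). None of the 4 pump rows was called there with edgeR and none had an unadjusted p under 0.05. DESeq2 was run on the filtered rows only, which leave them out. The intervals of Abcc1 and Abcg2, which use 4 residual degrees of freedom, still hold differences of more than 2-fold either way. No row overlaps an exon of Abcc1 or Abcg2 on the other strand, so the strand of these pump RNAs was not measured.

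Per kb of exon, which allows rows to be set side by side, the level over the 8 libraries was 21.9 CPM per kb for Gm5106, 7.80 for Gm42686, 0.714 for Abcb1b, 0.456 for Abcg2, 0.317 for Abcc1 and 0.172 for Abcb1a. The rows that take the strand of Abcb1a and Abcb1b were thus far above the rows that take the strand opposite to the pumps. The 4 pump rows were all near the floor. Of the 1334 exon bases of Gm5106, 957 lie before the annotated start of Abcb1b and 143 overlap its exons. How much of the Gm5106 level is Abcb1b RNA was not measured. Gm42686 and Gm5106 cover different parts of their genes, so their levels do not rank Abcb1a against Abcb1b.

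Within 500000 bases of Gm42686 the table has 24 rows, of which 8 held no count and 6 were tested. Beside Gm42686 and Gm5106 these were Tmem243 at a mean of 132 CPM over the 8 libraries, Dmtf1 at 97.8, Adam22 at 13.04 and Dbf4 at 11.2. In the main effect of EZM8266, where 0.658% of all tested rows were called, none of these 4 was called with edgeR or DESeq2 and none had an unadjusted p under 0.05, and the 1 called row of the region was Gm42686, which had been chosen for its calls. The row of Abcb4, the phospholipid transporter of bile and the third member of this gene cluster, held 0 to 3 counts. So did that of Crot, a peroxisomal carnitine acyltransferase. Rows named by a gene here mainly count the strand opposite to that gene. No row overlaps an exon of Abcb4 on the other strand, so Abcb4 RNA was not measured. Gm37153, over Crot and also over Gm27941, held 2 to 8 counts. Gm17936 held 0 to 1 counts and Gm15610 1 to 5. The plus-strand row Gm42684, which lies inside Abcb1a and takes minus-strand fragments, held 0 counts in all 8 libraries, as did Rundc3b. The main effect of EZM8266 on the log2 scale was 0.19 ± 0.32 for Adam22, 0.12 ± 0.13 for Tmem243, -0.01 ± 0.19 for the transcription factor Dmtf1 and -0.07 ± 0.42 for Dbf4, a regulatory subunit of the replication kinase Cdc7 (edgeR adjusted p = 0.945, 0.915, 0.997 and 0.991). Tmem243 and Dmtf1 overlap each other's exons on opposite strands, so each row may hold the other's fragments.

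**Figure D3:**
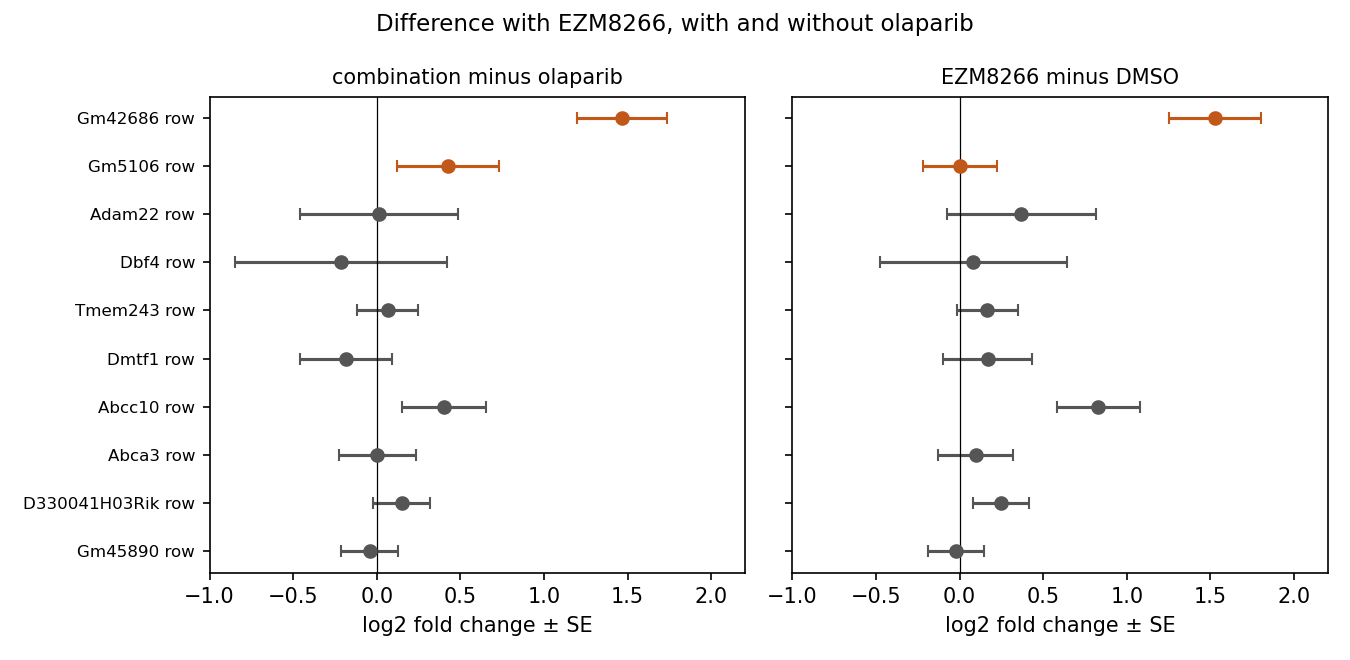
Log2 fold change (points) with its SE (bars) for the combination minus olaparib (left) and EZM8266 minus DMSO (right), for the tested rows within 500000 bases of Gm42686 and the tested ABC transporter rows of highest level. Gm42686 lies at 1.47 and 1.53, and no other row shown lies above 0.42 (Gm5106) on the left and 0.83 (Abcc10) on the right.

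Other transporters of the ABC family were read in the same ways. Of 53 rows that carry the symbol of a family member or of the peptide and chloride transporters Tap1, Tap2 and Cftr, 47 had a count and 7 were tested. None of the 7 was called in any of the 7 comparisons with edgeR or DESeq2. Of all tested rows, edgeR called 0.0% to 0.658% in these comparisons, so nothing is read from the absence of calls. In the main effect of EZM8266, 4 of the 7 lay above 0, where 47.4% of all tested rows did. Their median log2 fold change was 0.05, against -0.02 over all tested rows. At an unadjusted p under 0.05 there was 1 row of the 7, against 6.77% of all tested rows. That row, Abcc10, held 52.9 ± 5.59 CPM with the combination, 63.2 ± 7.33 with EZM8266, 39.9 ± 8.33 with olaparib and 34.99 ± 9.10 with DMSO (SD, n = 2 each). Its main effect was 0.62 ± 0.18 (edgeR adjusted p = 0.255). Abcc10 is a further drug exporter, but its row overlaps exons of Dlk2 on the other strand and may count that gene.

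Of 15 rows that overlap exons of such a transporter on the other strand, 13 had a count and 7 were tested. In the main effect of EZM8266, 1 of the 7 was called, against 0.658% of all tested rows, and that row was Gm42686, which had been chosen for its calls. In the same comparison 5 of the 7 lay above 0 with a median of 0.21, where 47.4% of all tested rows lay above 0 with a median of -0.02. Gm42686 is 1 of these 5 and enters the median, so nothing is read from either value. D330041H03Rik, over the surfactant lipid transporter Abca3, held 121 ± 17.6 CPM with the combination, 126 ± 21.3 with EZM8266, 109 ± 0.235 with olaparib and 106 ± 7.85 with DMSO (SD, n = 2 each). Its main effect was 0.20 ± 0.12 (edgeR adjusted p = 0.855). The Abca3 row itself had a main effect of 0.05 ± 0.16 (adjusted p = 0.976). Gm45890, over the mitochondrial transporter Abcb10 and also over Nup133, held the highest level of the family at a mean of 172 CPM, and its main effect was -0.03 ± 0.12 (adjusted p = 0.978). Over Tap2, a subunit of the peptide transporter for antigen presentation, Gm15821 had a main effect of 0.25 ± 0.21 (edgeR adjusted p = 0.897). Gm20496, which lies over Tap2 and also over Psmb8, had 0.70 ± 0.38 (edgeR adjusted p = 0.840).

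Factors known to act at mammalian ABCB1 promoters were counted as a list of 19 genes, among them the nuclear receptors Nr1i2 and Nr1i3, the subunits of NF-Y, Sp1, the hypoxia factor Hif1a and Ctnnb1, which is beta-catenin. On their own rows 10 were tested and 0 called in each of the 7 comparisons with edgeR, 0 at an unadjusted p under 0.05 and 0 with DESeq2. In the main effect of EZM8266, 2 lay above 0 and 8 below it, with a median log2 fold change of -0.18. Over all tested rows in that comparison, 47.4% lay above 0, the median was -0.02, 6.77% had an unadjusted p under 0.05 and 0.658% were called. The own rows mainly count the strand opposite to the factor, so no direction of factor RNA is read from them. Of the 6 rows over exons of these genes on the other strand, 4 were tested and 0 called, again with 0 at an unadjusted p under 0.05 and 0 with DESeq2. In the main effect of EZM8266, 2 of these 4 lay above 0 and 2 below it, with a median of -0.02. Ulk4, over Ctnnb1, held a mean of 3009 CPM and had a main effect of -0.05 ± 0.08, and Gm15283, over Hif1a, held 1709 CPM and had -0.06 ± 0.09. Of the own rows with the highest level, Ybx1 had -0.16 ± 0.20, and Nr1i3 had -0.02 ± 0.10 but overlaps exons of Tomm40l, whose fragments it may count. None of the 4 passed the test with edgeR (adjusted p = 0.936, 0.929, 0.925 and 0.981 in the order named).

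The rows whose levels ran most like Gm42686 over the 8 libraries were sought among 6366 tested rows with a mean of at least 5 CPM, by Pearson's r of log2 CPM. The 5 closest were Gm30489, over an exon of the clotting factor gene F13a1 (r = 0.978), Gdnf, a neurotrophic growth factor (r = 0.975), 4932411K12Rik (r = 0.969), Gm26809, over Gm20186 (r = 0.958), and Gm17017, over Sp140, a chromatin reader of immune cells (r = 0.953). All 5 rows, like Gm42686, were higher in each library with EZM8266 than in any without it. They were picked for running like Gm42686, itself chosen for its difference with EZM8266, so this split is largely built into the choice. The rows also share library, depth and scaling, so no p is given. With a smaller count added before the log (0.5 in place of 2), the row at rank 5 was Bdnf (r = 0.954). The Gdnf and Bdnf rows mainly count the strand opposite to these genes, so they do not give the level of Gdnf or Bdnf RNA. The Gdnf row held 436 ± 3.53 CPM with the combination, 372 ± 31.5 with EZM8266, 203 ± 5.36 with olaparib and 175 ± 14.3 with DMSO (SD, n = 2 each). Gm30489 held 175 ± 12.9 CPM with the combination, 180 ± 15.8 with EZM8266, 69.2 ± 2.77 with olaparib and 63.6 ± 5.13 with DMSO. Gm5106, the partner row at the locus, had r = 0.33 with Gm42686 and ranked 1403 of the 6366.

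**Figure D4:**
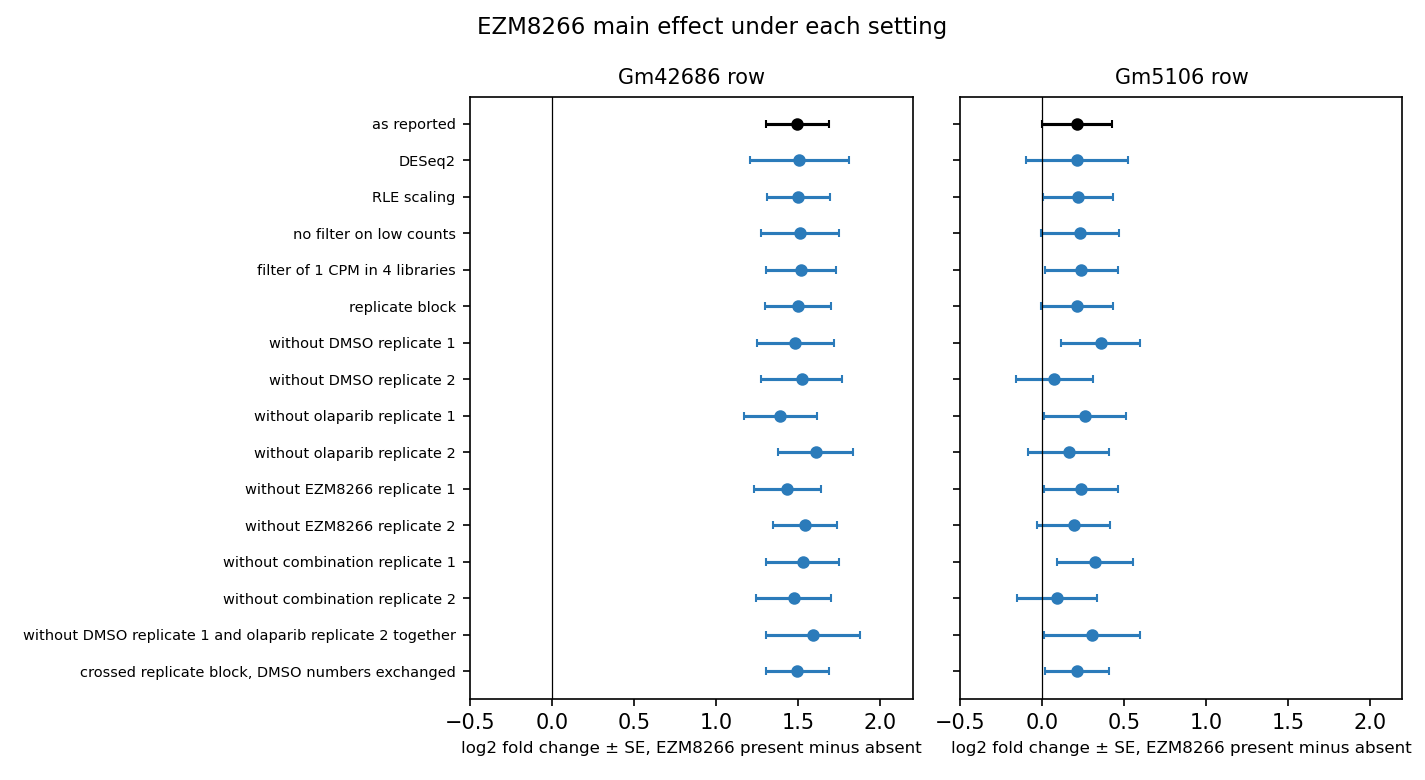
Main effect of EZM8266 as log2 fold change (points) with SE (bars) for Gm42686 (left) and Gm5106 (right), as reported (black, top) and under each other setting (blue). Gm42686 stays between 1.39 and 1.61 and Gm5106 between 0.07 and 0.36.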

How the data were processed

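RNA of 8 libraries in 4 groups was counted per gene. The deposited values are whole-number counts, not normalized. The build was mm10 and the tools included HISAT2 2.1.0 and Subread 1.6.2, per the submitters' processing notes. Read pairs over GENCODE M18 exons were counted with featureCounts from alignments named unique, with multiple overlap allowed and strand setting 1, per the file headers. Per the labels' protocols, ribosomal RNA was depleted and the KAPA mRNA HyperPrep kit was used, which marks the strand with dUTP, so that rows mainly count the opposite strand. GENCODE M21 of the same assembly named 54079 rows and left 67 unnamed.

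Titles gave the groups. For combination replicate 2 the treatment field says EZM8267, and its title was followed. The members, the gene lists and the tests were chosen with earlier results of these data known. The rows named are the members, rows with a count within 250000 bases of Gm42686, the 6 ABC and 4 regulator rows of highest level, called ones, and the 5 most like Gm42686; other rows named here were chosen after their values were seen.

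edgeR 4.0.16 (R 4.3.3) fitted all 8 libraries with 4 group means, TMM scaling, filterByExpr (minimum count 10, minimum total 15) and the quasi-likelihood F test, with Benjamini-Hochberg adjustment over 6379 rows and calls at 0.05. Intervals are 95%, with 4 residual degrees of freedom. The edgeR p-values come from a test that shares the spread among rows, so the intervals are wider than that test implies. An interval can therefore hold 0 where the unadjusted p is under 0.05. Opposite-strand rows needed an overlap of at least 50 bases. The fit was tested on simulated data. DESeq2 1.42.0, RLE scaling, other filters, a replicate block and left-out libraries were tried as alternatives. Same-numbered libraries of olaparib, EZM8266 and the combination deviated together (correlations of 0.218 to 0.293), and those of DMSO ran against all 3 (-0.315 to -0.147). The numbers were therefore not taken to pair the 4 groups. A planned leukocyte marker is not reported here.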

Additional observations from a re-analysis of the deposited data

How the results depend on the processing

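The log2 fold change of Gm42686 stayed between 1.41 and 1.61 in EZM8266 over DMSO, 1.58 and 1.70 in the combination over DMSO, 1.26 and 1.69 in the combination over olaparib (16 alternatives each), and 1.39 and 1.61 for the main effect (15 alternatives). These ranges describe a row chosen on these contrasts. The number of member rows called in EZM8266 against DMSO was 0 in place of 1 with DESeq2, with the replicate block, with only the groups compared, without DMSO replicate 1 and olaparib replicate 2 together, and in each fit without 1 library (0 to 0). In the combination against DMSO it was 0 in place of 1 without those libraries together, and 0 to 1 without 1 library. In the combination against olaparib it was 1 in place of 0 with no filter on low counts, as was the number of ABC transporter rows called, and 0 to 1 without 1 library. The crossed replicate block, with the DMSO numbers exchanged, was added after seeing the data and called 1 member row there. The causes were not tested. Fewer libraries also leave fewer degrees of freedom, and the part this played was not tested. The following log2 fold changes changed sign, none of them past the test. For Gm5106 in EZM8266 against DMSO, the log2 fold change was -0.0014 with the replicate block, -0.011 with only the groups compared and -0.28 to 0.29 without 1 library. For Gm5106 it was -0.22 to 0.35 in the combination against DMSO and -0.21 to 0.27 in the combination against EZM8266 without 1 library. For Gm42686 without 1 library it was -0.054 to 0.37 in olaparib against DMSO and -0.27 to 0.16 in the interaction. Without DMSO replicate 1 and olaparib replicate 2 it was -0.090 in olaparib against DMSO and 0.20 in the interaction, and for Gm5106 in olaparib against DMSO it was 0.0090, in place of -0.37. The fit of only the groups compared could not be run for the main effect and the interaction, which use all groups. Depth limits the 4 pump rows, which hold 0 to 14 counts per library.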
